A study of Homo sapiens with 9 samples.

Results

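The genes described here are 10 transcription factors of epithelial lineage, namely TFAP2A, TFAP2C, GATA3, FOXA1, ELF3, EHF, KLF4, KLF5, GRHL1 and GRHL2. They were taken by symbol from a table of 23710 entries, and all 10 had an entry with at least 1 count. Of these, 8 passed the filter on low counts that left 12546 genes for testing, while FOXA1 and GRHL2 did not. The genes were chosen by name with their fold changes between the hairpin groups already known, so these values are given as a description, without p-values. RNA was sequenced from MDA-MB-231, an established human breast cancer cell line of mesenchymal appearance that lacks estrogen receptor, progesterone receptor and HER2 amplification. Cells carried shUGDH-1 or shUGDH-2, a pair of hairpins against UGDH, or the non-targeting hairpin shNT, in 3 libraries per hairpin. The enzyme UGDH makes UDP-glucuronate, a building block of hyaluronan and proteoglycan chains. All 3 groups were transduced with a pGIPZ lentivirus that carried the hairpin, and no group without virus was analysed here. The labels call the cultures biological replicates and do not say whether each was transduced on its own, so the errors cover the spread between these libraries.

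TFAP2A and TFAP2C encode AP-2 alpha and AP-2 gamma, which bind the same palindromic DNA motif as dimers. In breast epithelium they act on luminal genes together with GATA3, a regulator of luminal differentiation, and FOXA1, a pioneer factor that opens chromatin for the estrogen receptor. ELF3 and EHF are epithelium-specific ETS factors, KLF4 and KLF5 are Krüppel-like zinc finger factors of epithelial differentiation and growth, and GRHL1 and GRHL2 are Grainyhead-like factors that act on junction genes. GRHL2 is known to maintain CDH1, the gene of E-cadherin, and to oppose ZEB1, a repressor of the epithelial state.

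The hairpin sequences that define the groups are given in the labels and are printed to identify what each set of cells carried.
shUGDH-1: ttgcatcaaatatgcgacg
shUGDH-2: atatacttcagatctgctg
shNT: atctcgcttgggcgagagtaag
UGDH itself averaged 7.65 ± 0.367 CPM (counts scaled to a common library size) with shUGDH-1, 7.17 ± 0.802 CPM with shUGDH-2 and 53.0 ± 2.67 CPM with shNT (SD, n = 3 each). Libraries held 9249738 to 13328002 counts assigned to genes, and 14899 to 15278 genes had a count. All 12 marker genes chosen for the cell line passed the filter, with VIM, an intermediate filament of mesenchymal cells, at 2500 ± 27.2 CPM with shUGDH-1, 2140 ± 24.1 CPM with shUGDH-2 and 2210 ± 52.6 CPM with shNT. The luminal receptor gene ESR1 had 1 count in all libraries together. Of 12 leukocyte markers, 3 had 0 counts (CD3E, MS4A1 and TYROBP), and of 9 fibroblast markers, 2 had 0 (DCN and LUM). The others had counts. The leukocyte markers summed to 88.3 to 94.3 CPM with shUGDH-1, 90.6 to 97.0 CPM with shUGDH-2 and 97.1 to 104 CPM with shNT. The fibroblast markers summed to 30.6 to 32.7 CPM with shUGDH-1, 35.4 to 37.0 CPM with shUGDH-2 and 28.1 to 31.5 CPM with shNT. In bulk RNA, fewer cells that express a gene and less of its RNA per cell cannot be told apart.

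TFAP2C, on chromosome 20, had the largest called difference from shNT among these factors, and it was higher with both hairpins. It had 6.70, 6.17 and 6.29 CPM in the libraries with shUGDH-1, 6.82, 6.78 and 6.63 CPM with shUGDH-2, and 2.77, 3.32 and 2.56 CPM with shNT. Every library with a UGDH hairpin lay above every shNT library, and the ranges of both UGDH hairpins overlapped. These levels rest on 58 to 87 counts a library with shUGDH-1, 81 to 88 with shUGDH-2 and 30 to 39 with shNT. The fold change over shNT was 2.22 with shUGDH-1, a log2 fold change of 1.15 (SE 0.17), and 2.34 with shUGDH-2, a log2 fold change of 1.23 (SE 0.17). Both hairpins are set against the same shNT libraries, so these are not independent of each other. Between the hairpins the log2 fold change of TFAP2C, shUGDH-1 over shUGDH-2, was -0.08 and was not called, with a 95% interval of -0.36 to 0.20. Among the 12546 genes tested, TFAP2C ranked 45 from the highest fold change with shUGDH-1 and 20 with shUGDH-2.

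A gene is said to be called when edgeR's quasi-likelihood test gave a Benjamini-Hochberg adjusted p under 0.05 over all genes tested, which held for 20.8% of them with shUGDH-1, 14.9% with shUGDH-2 and 10.9% between the hairpins. With shUGDH-1, 2 of the 8 tested factors were called higher, TFAP2C and ELF3, against a background of 10.5% of all genes, and 2 were called lower, TFAP2A and EHF, against 10.3%. With shUGDH-2, 3 factors were called higher, TFAP2C, GATA3 and EHF, against a background of 8.04%, and 1 was called lower, TFAP2A, against 6.81%. Between the hairpins, 1 factor, EHF, was called lower with shUGDH-1, against a background of 5.36%, and 0 were called higher, against 5.51%. With both hairpins, TFAP2C was called higher, as were 4.72% of all genes, and TFAP2A lower, as were 3.61%. Counted by libraries that did not overlap, TFAP2C, ELF3 and KLF5 were higher with shUGDH-1 than with shNT (17.3% of all genes) and TFAP2A and EHF lower (16.8%), and with shUGDH-2 TFAP2C, GATA3 and EHF were higher (14.7%) and TFAP2A lower (13.9%). In the same way ELF3 and KLF5 were higher with shUGDH-1 than with shUGDH-2 (13.9%) and GATA3 and EHF lower (13.1%), while TFAP2C was higher (8.04%) and TFAP2A lower (7.05%) with both hairpins than with shNT. Nothing is read from these counts, since the same differences were known when the genes were listed. The median log2 fold change of the 8 tested factors was 0.005 with shUGDH-1 and 0.065 with shUGDH-2. For all genes tested it was -0.003 with shUGDH-1 and -0.006 with shUGDH-2. The tested factors thus lay on both sides of 0, with TFAP2C the farthest from it among those called.

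**Figure D1:**
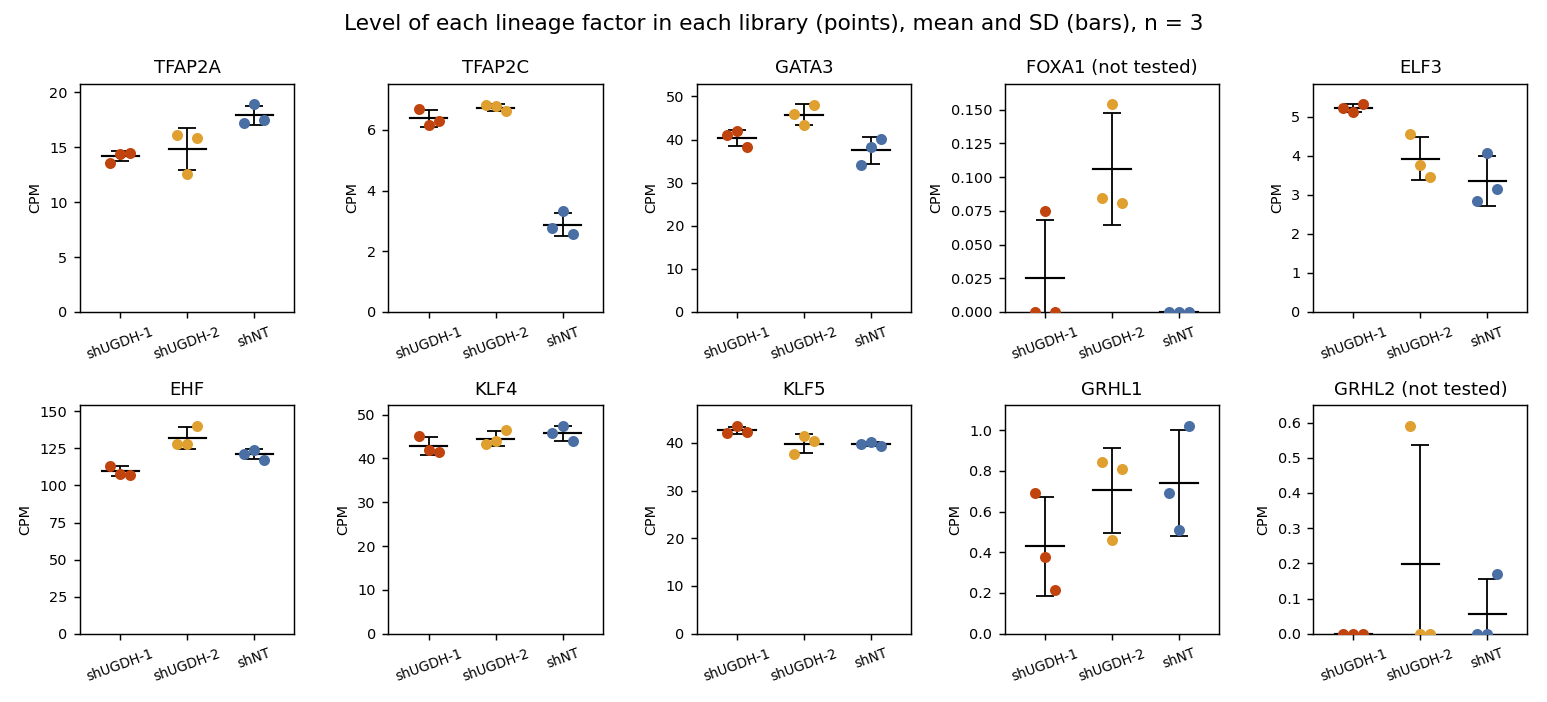
Level of each of the 10 factors in CPM (vertical axes, each from 0) in the 3 libraries per group, with the mean and SD as black bars cut off at 0. TFAP2C lies at 6.17 to 6.82 CPM in the 6 libraries with a UGDH hairpin and at 2.56 to 3.32 CPM with shNT, and FOXA1 and GRHL2 are near 0.

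TFAP2A, the close relative of TFAP2C, lay on chromosome 6 and was lower with both hairpins. It had 13.6, 14.4 and 14.5 CPM with shUGDH-1, 16.1, 12.6 and 15.8 CPM with shUGDH-2, and 17.2, 18.9 and 17.5 CPM with shNT. No library with a UGDH hairpin reached the lowest shNT library, and shUGDH-2 replicate 2 was the lowest of all. The log2 fold change was -0.34 (SE 0.10) with shUGDH-1 and -0.27 (SE 0.09) with shUGDH-2. Its call with shUGDH-2 was lost when shUGDH-2 replicate 2, shNT replicate 2 or shNT replicate 3 was left out. Both of its calls were lost with DESeq2 as run here. In the authors' deposited tables TFAP2A had an adjusted p under 0.05 with shUGDH-1 but not with shUGDH-2. TFAP2A shares exons with antisense genes, 11.4% of the bases in all its annotated exons with TFAP2A-AS2 and 5.3% with TFAP2A-AS1, and the strand setting of the counting is not given in the sources used here, so reads of these genes cannot be told apart. TFAP2A and TFAP2C share no run of 76 bases, the read length, in their longest transcripts.

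TFAP2C made up a larger share of the pair with both UGDH hairpins than with shNT. Per kilobase of merged exons in the basic gene annotation, TFAP2C was at 2.23 ± 0.0967 CPM with shUGDH-1, 2.35 ± 0.036 CPM with shUGDH-2 and 1.00 ± 0.137 CPM with shNT (SD, n = 3 each). On the same scale TFAP2A was at 3.06 ± 0.104 CPM with shUGDH-1, 3.19 ± 0.411 CPM with shUGDH-2 and 3.85 ± 0.189 CPM with shNT. The share of TFAP2C in the sum of both was 44.3%, 41.0% and 41.2% in the shUGDH-1 libraries, 40.7%, 46.5% and 40.5% in the shUGDH-2 libraries, and 20.7%, 22.1% and 19.1% in the shNT libraries. Which of the pair was the more abundant with the UGDH hairpins depends on the length used. With the exons of all annotated transcripts, which make TFAP2A 8.274 instead of 4.641 kilobases long, TFAP2A was at 1.71 CPM per kilobase with shUGDH-1, 1.79 with shUGDH-2 and 2.16 with shNT, and TFAP2C was at 2.12 with shUGDH-1, 2.24 with shUGDH-2 and 0.957 with shNT. The mean share of TFAP2C was then 55.4% with shUGDH-1, 55.7% with shUGDH-2 and 30.6% with shNT, and by the longest coding transcript it was 37.6% with shUGDH-1, 38% with shUGDH-2 and 17.7% with shNT. The libraries with a UGDH hairpin lay above all shNT libraries at each length. With the basic annotation the sum per kilobase averaged 5.28 ± 0.0414 CPM with shUGDH-1, 5.55 ± 0.405 CPM with shUGDH-2 and 4.86 ± 0.318 CPM with shNT, and shNT replicate 2, at 5.22 CPM, lay above the lowest shUGDH-2 library, at 5.09 CPM.

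**Figure D2:**
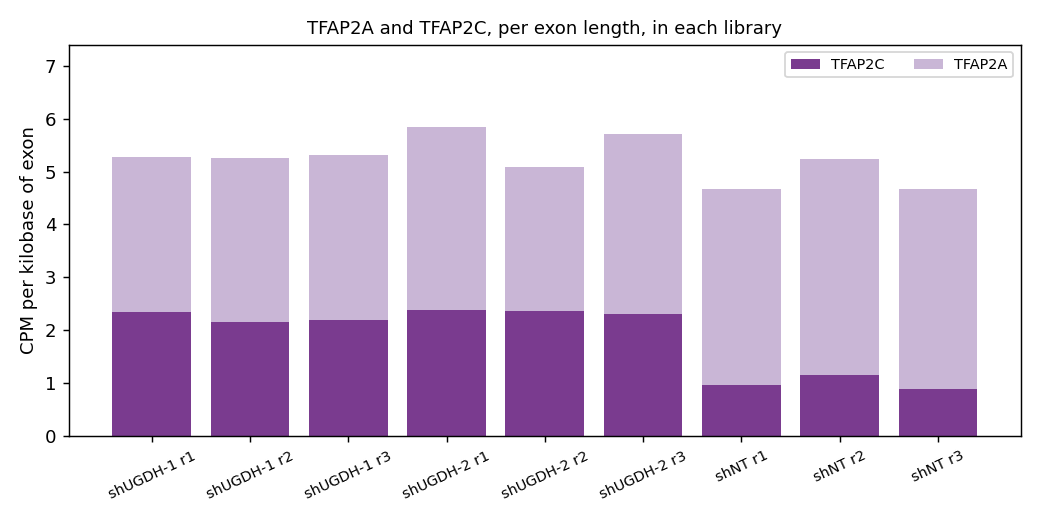
TFAP2C (dark) and TFAP2A (light) in each library, in CPM per kilobase of merged exons in the basic annotation, stacked so that the bar height is their sum. At this length TFAP2C makes up 40.5% to 46.5% of the bar with a UGDH hairpin and 19.1% to 22.1% with shNT.

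Of the other AP-2 genes, TFAP2B and TFAP2D had 0 counts in all libraries. TFAP2E was low and averaged 3.33 ± 1.23 CPM with shUGDH-1, 3.22 ± 0.365 CPM with shUGDH-2 and 3.62 ± 0.797 CPM with shNT, and its libraries overlapped between all groups. Among 8 tested cofactors and inhibitors of AP-2 proteins, CITED2, a coactivator that bridges AP-2 factors to CBP and p300, was the only gene called with either hairpin. Of all genes, 20.8% were called with shUGDH-1 and 14.9% with shUGDH-2. CITED2 was higher by a log2 fold change of 0.23 with shUGDH-1 and 0.13 with shUGDH-2 (edgeR's quasi-likelihood test, Benjamini-Hochberg adjusted p = 1.2e-08 with shUGDH-1 and 0.00079 with shUGDH-2).

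GATA3, which drives and maintains luminal mammary cells, was higher with shUGDH-2. It had 41.0, 41.9 and 38.3 CPM with shUGDH-1, 45.9, 43.4 and 48.1 CPM with shUGDH-2, and 34.1, 38.3 and 40.2 CPM with shNT. All shUGDH-2 libraries lay above all others, while the libraries with shUGDH-1 and shNT overlapped. The log2 fold change over shNT was 0.29 (SE 0.06) with shUGDH-2 and was called. With shUGDH-1 it was 0.12 (95% interval -0.01 to 0.24) and was not called. The difference between the hairpins, shUGDH-1 over shUGDH-2, was -0.17 (SE 0.06) on the log2 scale, near the threshold: it was not called, but was called under 6 of the alternative settings and when shUGDH-2 replicate 2 or any 1 of the shNT libraries was left out. FOXA1, which works with GATA3 and the estrogen receptor in luminal cells, had 0, 1 and 0 counts with shUGDH-1, 1, 2 and 1 counts with shUGDH-2, and 0 in each shNT library. A level of 3 counts, the limit that a count of 0 allows, corresponds to 0.226 to 0.326 CPM in these libraries. The observed counts of FOXA1 were below 3 in all 9 of them. Where FOXA1 had 1 or 2 counts, its level is not bounded by that limit.

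ELF3, an ETS factor of epithelial cells, was higher with shUGDH-1. It had 5.24, 5.12 and 5.32 CPM with shUGDH-1, 4.55, 3.77 and 3.47 CPM with shUGDH-2, and 2.84, 4.08 and 3.15 CPM with shNT. The libraries with shUGDH-1 lay above all others and were close to each other, whereas those with shUGDH-2 and shNT overlapped. The fold change with shUGDH-1 was 1.56, a log2 fold change of 0.64 (SE 0.18). With shUGDH-2 it was 0.23 on the log2 scale (95% interval -0.14 to 0.61) and was not called, and neither was the difference between the hairpins, 0.41 (95% interval 0.07 to 0.75). Without shNT replicate 1, and with DESeq2 as run here, the call with shUGDH-1 was lost. In the authors' deposited tables ELF3 had an adjusted p under 0.05 with shUGDH-1. ELF3 shares 9.2% of the bases in all its annotated exons with ELF3-AS1, on the other strand, and 9.2% with AL691482.3, on the same strand. Of the runs of 76 bases in its longest transcript, 19.6% occur in these overlapping genes, so part of its count is uncertain.

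EHF, also an epithelial ETS factor, differed in opposite directions with the 2 hairpins. It had 113, 108 and 107 CPM with shUGDH-1, 128, 128 and 140 CPM with shUGDH-2, and 121, 124 and 117 CPM with shNT. The groups did not overlap: all libraries with shUGDH-1 were lowest and all with shUGDH-2 were highest. The log2 fold change over shNT was -0.14 (SE 0.04) with shUGDH-1 and 0.13 (SE 0.04) with shUGDH-2, and between the hairpins, shUGDH-1 over shUGDH-2, it was -0.27 (SE 0.04). The call with shUGDH-2 was lost without shUGDH-2 replicate 3, without shNT replicate 3 and with DESeq2, and the call with shUGDH-1 was lost with DESeq2 without its independent filter, while the difference between the hairpins was called under every alternative run. ELF5, the mammary alveolar ETS factor and the protein-coding gene next to EHF, had 0 counts in all libraries. SPDEF, the ETS factor of secretory and luminal cells, had 8 counts in all with shUGDH-1, 5 with shUGDH-2 and 6 with shNT.

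KLF4 and KLF5 were not called with either hairpin. KLF4, which acts in barrier formation and differentiation, had 45.1, 41.8 and 41.5 CPM with shUGDH-1, 43.2, 44.0 and 46.4 CPM with shUGDH-2, and 45.7, 47.3 and 44.0 CPM with shNT, and its groups overlapped. Its log2 fold change had a 95% interval of -0.21 to 0.02 with shUGDH-1 and of -0.15 to 0.07 with shUGDH-2. KLF5, which supports proliferation of basal and progenitor cells, had 42.1, 43.5 and 42.2 CPM with shUGDH-1, 37.7, 41.4 and 40.4 CPM with shUGDH-2, and 39.7, 40.2 and 39.4 CPM with shNT. The shUGDH-1 libraries of KLF5 lay above all the others, by a log2 fold change over shNT of 0.10 (95% interval -0.02 to 0.22), and with shUGDH-2 the interval was -0.11 to 0.12. The intervals of KLF4 and KLF5 do not reach the log2 fold change of TFAP2C.

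GRHL1, an activator of desmosomal genes, was detected at 2 to 12 counts a library. It had 0.693, 0.376 and 0.217 CPM with shUGDH-1, 0.842, 0.462 and 0.808 CPM with shUGDH-2, and 0.691, 0.510 and 1.02 CPM with shNT. The groups overlapped, and the log2 fold changes of -0.70 (SE 0.48) with shUGDH-1 and -0.08 (SE 0.43) with shUGDH-2 carried errors too wide for a direction, which for shUGDH-2 changed sign without single libraries. GRHL2 had 0 counts in each shUGDH-1 library, 7, 0 and 0 counts with shUGDH-2, and 0, 0 and 2 counts with shNT. GRHL3, the keratinocyte member of the family, had 1 count in all with shUGDH-1, 2 with shUGDH-2 and 2 with shNT.

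The single library with GRHL2 counts above the limit, shUGDH-2 replicate 1, also held the most counts of basal keratins. The summed counts of KRT5, KRT6A, KRT14 and KRT17, keratins of basal and squamous epithelium, were 6, 76 and 37 with shUGDH-1, 103, 12 and 1 in the shUGDH-2 libraries, and 6, 5 and 20 with shNT. They varied widely between replicates of each UGDH hairpin, and the 2 GRHL2 counts of shNT fell in replicate 3, the shNT library with most of them. TFAP2C did not follow these keratins: it was at 6.70 CPM in shUGDH-1 replicate 1 with 6 keratin counts and at 6.63 CPM in shUGDH-2 replicate 3 with 1, as high as in shUGDH-2 replicate 1, at 6.82 CPM with 103. CDH1 was near the detection limit, with 9, 9 and 3 counts with shUGDH-1, 13, 12 and 5 counts with shUGDH-2, and 2, 2 and 4 counts with shNT, and did not pass the filter.

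**Figure D3:**
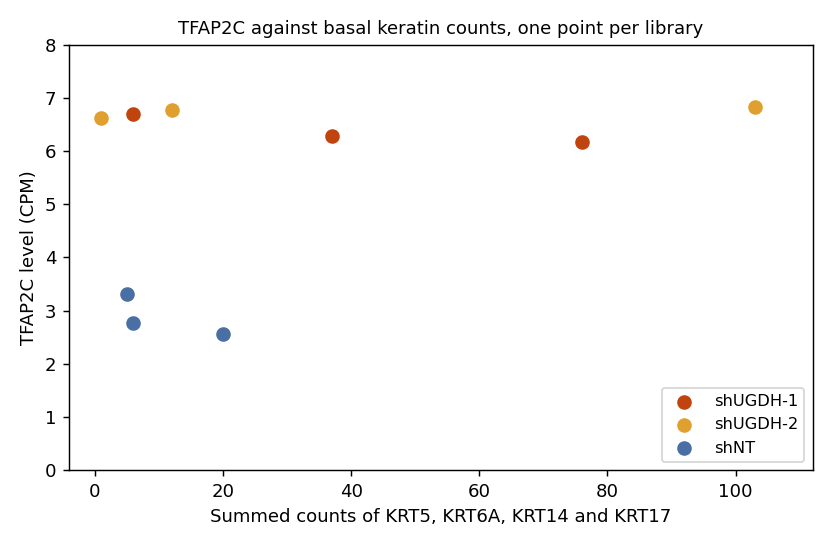
TFAP2C in CPM (vertical axis) against the summed counts of 4 basal keratins (horizontal axis), with 1 point per library. Libraries with a UGDH hairpin stay at 6.17 to 6.82 CPM over a range of 1 to 103 keratin counts.

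The order of the levels, compared per kilobase of exon in the basic annotation in the shNT libraries, ran from EHF at 30.6 ± 0.886 CPM over KLF4 at 15.6 ± 0.564 CPM to GATA3 at 12.0 ± 0.997 CPM and KLF5 at 10.6 ± 0.104 CPM (SD, n = 3 each). TFAP2A followed at 3.85 ± 0.189 CPM, then TFAP2C at 1.00 ± 0.137 CPM, ELF3 at 0.544 ± 0.104 CPM and GRHL1 at 0.205 ± 0.0718 CPM. EHF was the most abundant of these factors in each group. The libraries of the neighbours GATA3, at 10.9 to 12.9 CPM, and KLF5, at 10.5 to 10.7 CPM, did not overlap but lay close together. GRHL2 averaged 0.0107 CPM and FOXA1 was at 0. With each UGDH hairpin the order of the 8 tested factors was the same in the basic annotation and by the longest coding transcript, while with all annotated exons GATA3 came before KLF4 and TFAP2C before TFAP2A. With shUGDH-2 and the basic annotation the libraries of KLF4, at 14.7 to 15.8 CPM, and GATA3, at 13.9 to 15.4 CPM, overlapped.

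**Figure D4:**
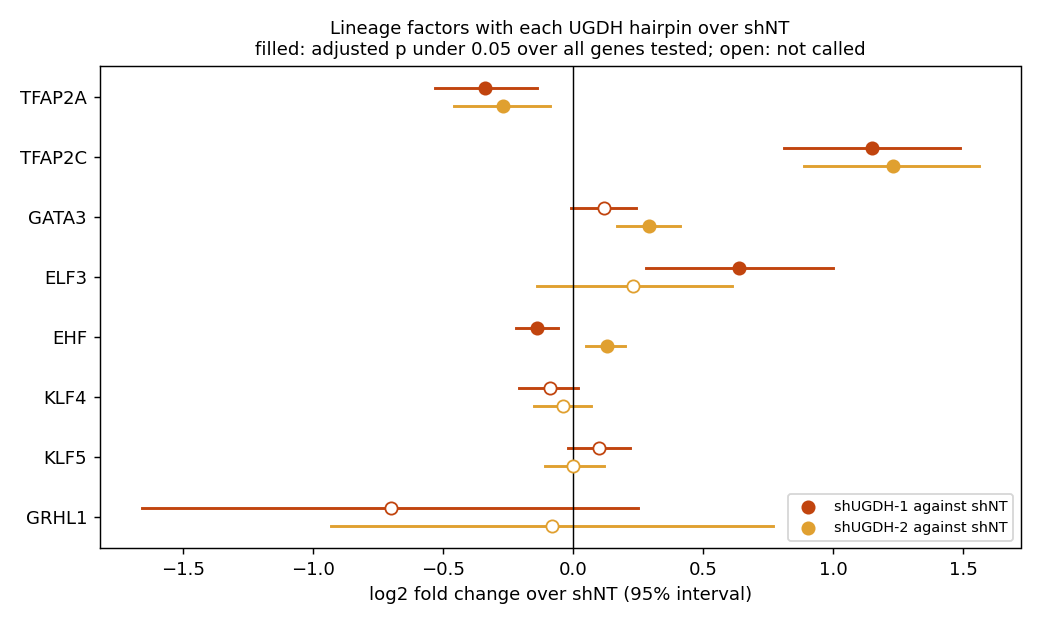
Log2 fold change over shNT of the 8 tested factors with shUGDH-1 (upper point of each pair) and shUGDH-2 (lower point), with 95% intervals, filled where called. TFAP2C lies at 1.15 and 1.23, TFAP2A is lower with both hairpins, and EHF lies on opposite sides of 0.

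Across the 9 libraries, the genes outside the list whose log2 CPM followed TFAP2C most closely were THBS1 (Pearson r = 0.987), MCAM (0.984), GAS6 (0.981), TMBIM1 (0.980) and PTPRF (0.979), among 10361 genes with a mean of at least 5 CPM. The points share their libraries and scaling and fall into the same hairpin groups, so r is given as a description of these libraries. MCAM, an adhesion molecule, had 242, 235 and 233 CPM with shUGDH-1, 238, 237 and 245 CPM with shUGDH-2, and 189, 193 and 192 CPM with shNT. It was thus near the same level with both UGDH hairpins, as TFAP2C was. Among the other factors, r with TFAP2C was 0.686 for ELF3, 0.679 for GATA3, 0.356 for KLF5, 0.047 for EHF, -0.346 for GRHL1, -0.401 for KLF4 and -0.777 for TFAP2A.

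The list of AP-2 targets does not separate genes that AP-2 factors activate from genes that they repress. Of its 13 tested genes, 7 were called higher and 1 lower with shUGDH-1, where 10.5% of all genes were called higher and 10.3% lower. With shUGDH-2, 8 were called higher and 1 lower, where 8.04% of all genes were called higher and 6.81% lower, and 6 were called higher with both. Their median log2 fold change was 0.14 with shUGDH-1 and 0.16 with shUGDH-2, where the medians of all genes were near 0 as above. The gene lists used here, like the factors, were chosen with earlier results of these data known. Nothing is therefore read from their counts of called genes. KRT8 was higher by a log2 fold change of 0.40 with shUGDH-1 and 0.15 with shUGDH-2. KRT18, its partner in simple epithelial filaments, was higher by 0.34 with shUGDH-1 and 0.15 with shUGDH-2. KRT7 was higher by 0.27 with shUGDH-1 and 0.21 with shUGDH-2. MCAM was higher by 0.31 with shUGDH-1 and 0.33 with shUGDH-2. ERBB2, the HER2 receptor gene, was higher by 0.11 with each hairpin (edgeR's quasi-likelihood test, adjusted p = 0.023 with shUGDH-1 and 0.028 with shUGDH-2). These differences were small beside that of TFAP2C, and VEGFA, lower by 0.27 with shUGDH-1, was the target called lower with that hairpin. The target called lower with shUGDH-2 was another gene, not named here, since 0 targets were called lower with both. ESR1, which AP-2 factors activate in luminal cells, had 1 count as given above, and RET and KIT had 0.

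Of 7 tested targets of the Grainyhead-like factors, also chosen with earlier results known, 4 were called higher with each hairpin and 0 lower. Of all genes, 10.5% were called higher and 10.3% lower with shUGDH-1, and 8.04% higher and 6.81% lower with shUGDH-2. The medians of these targets were 0.48 with shUGDH-1 and 0.38 with shUGDH-2. SPINT1, a membrane inhibitor of serine proteases, had 4.77, 6.09 and 4.67 CPM with shUGDH-1, 4.13, 4.08 and 5.01 CPM with shUGDH-2, and 1.61, 2.21 and 2.56 CPM with shNT. Its log2 fold change was 1.31 with shUGDH-1 and 1.06 with shUGDH-2. ST14, the matriptase that SPINT1 inhibits, was higher by 0.56 with shUGDH-1 and 0.38 with shUGDH-2. CGN, a tight junction protein, was higher by 0.66 with shUGDH-1 and 0.45 with shUGDH-2. ERBB3, a receptor that pairs with HER2, was called with shUGDH-2 at 0.58, while its value with shUGDH-1 was 0.48.

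Epithelial adhesion, junction and keratin genes other than the factors themselves had 30 tested genes, of which 20 were called higher with shUGDH-1, 15 with shUGDH-2 and 13 with both, and 0 were called lower, beside 10.5%, 8.04% and 4.72% of all genes called higher in those comparisons. The medians were 0.35 with shUGDH-1 and 0.18 with shUGDH-2. OCLN, a tight junction protein, was higher by 0.94 with shUGDH-1 and 0.50 with shUGDH-2. F11R, a junctional adhesion molecule, was higher by 0.56 with shUGDH-1 and 0.44 with shUGDH-2. KRT7, KRT8 and KRT18 belong to this list, the AP-2 targets and the luminal markers. SPINT1, ST14 and CGN belong to this list and the Grainyhead targets. The lists are thus not independent, and all were chosen with earlier results of these data known. Luminal markers had 9 tested genes, with 6 called higher with shUGDH-1 (10.5% of all genes) and 5 with shUGDH-2 (8.04% of all genes). Among them KRT19 was higher by 0.49 with shUGDH-1 and 0.21 with shUGDH-2.

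Basal markers had 11 tested genes. With shUGDH-1, 4 were called higher and 1 lower (10.5% and 10.3% of all genes). With shUGDH-2, 2 were called higher and 1 lower (8.04% and 6.81% of all genes). ITGB4, the integrin of hemidesmosomes, was higher by 0.52 with shUGDH-1 and 0.09 with shUGDH-2. LAMB3, a chain of its ligand laminin-332, was lower by a log2 change of -0.27 with shUGDH-1 and -0.09 with shUGDH-2. Of 12 genes typical of the mesenchymal-like line, 7 were called higher and 1 lower with shUGDH-1 (10.5% and 10.3% of all genes), and 3 higher and 2 lower with shUGDH-2 (8.04% and 6.81% of all genes). FN1, the matrix protein fibronectin, was higher by 0.45 with shUGDH-1 and 0.24 with shUGDH-2. Of 4 tested factors that repress the epithelial state, 2 were called lower with shUGDH-1 (10.3% of all genes). These were SNAI2, by -0.18, and ZEB1, by -0.12 on the log2 scale. None of the 4 was called lower with shUGDH-2 (6.81% of all genes), with values of 0.09 for SNAI2 and -0.04 for ZEB1. With shUGDH-2, edgeR's quasi-likelihood test gave adjusted p = 0.23 for SNAI2 and 0.58 for ZEB1, and the difference between hairpins was called for SNAI2, at -0.26 for shUGDH-1 over shUGDH-2.

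Other regulators of the epithelial state had 16 tested genes. With shUGDH-1, 5 were called higher and 0 lower (10.5% and 10.3% of all genes). With shUGDH-2, 5 were called higher and 1 lower (8.04% and 6.81% of all genes). XBP1, a secretory factor high in luminal cells, was higher by 0.24 with shUGDH-1 and 0.26 with shUGDH-2. SOX9, a factor of mammary progenitors, was higher by 0.15 with shUGDH-1 and 0.26 with shUGDH-2. Relatives of these factors in the AP-2, GATA, FOXA, ETS, KLF and Grainyhead families had 24 tested genes, with 2 called higher and 2 lower with shUGDH-1 (10.5% and 10.3% of all genes), and 4 higher and 2 lower with shUGDH-2 (8.04% and 6.81% of all genes). Their median absolute log2 fold change was 0.11 with shUGDH-1 and 0.14 with shUGDH-2, beside 0.10 with shUGDH-1 and 0.09 with shUGDH-2 over all genes. TFCP2L1, a Grainyhead-related factor, averaged 10.4 ± 0.307 CPM with shUGDH-1, 7.69 ± 0.400 CPM with shUGDH-2 and 5.62 ± 0.756 CPM with shNT (SD, n = 3 each). It was higher by 0.89 with shUGDH-1 and 0.46 with shUGDH-2. The groups of TFCP2L1 did not overlap, and its difference between the hairpins, 0.43 for shUGDH-1 over shUGDH-2, was called. The ETS relatives ELF2 and ELF4 were called with both hairpins, in opposite directions. ELF2 was lower, at -0.22 with shUGDH-1 and -0.28 with shUGDH-2. ELF4 was higher, at 0.16 with shUGDH-1 and 0.17 with shUGDH-2. KLF13 was lower by a log2 change of -0.46 with shUGDH-1 and had a value of 0.06 with shUGDH-2.

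**Figure D5:**
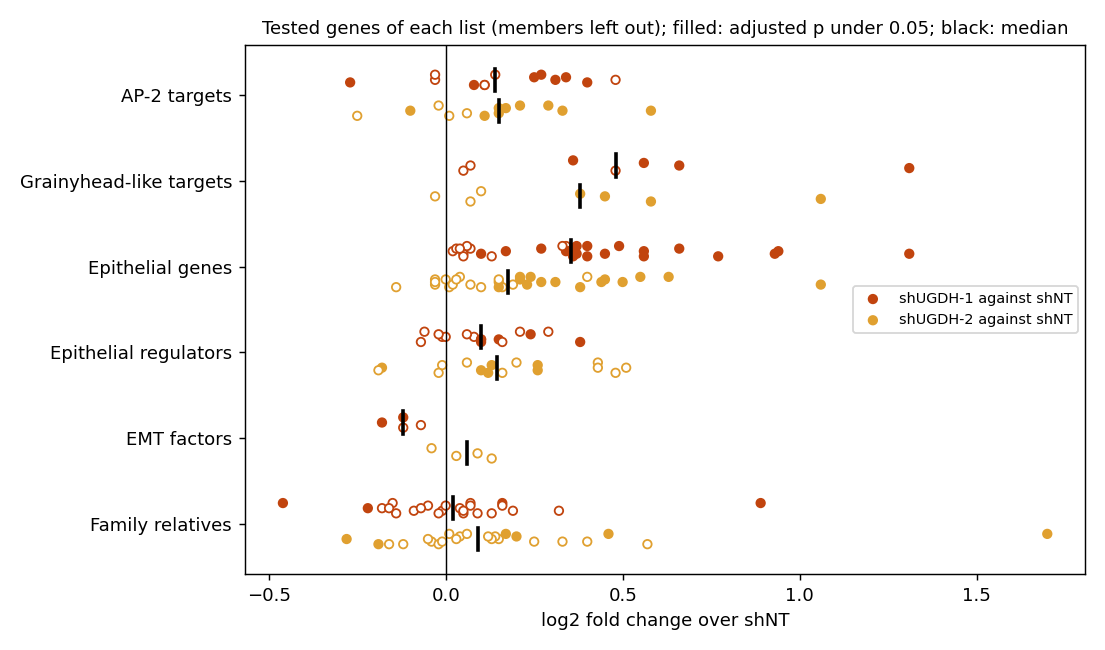
Log2 fold change over shNT (horizontal axis) of each tested gene of 6 lists, the factors themselves left out, with shUGDH-1 above shUGDH-2 in each list, filled points for called genes and black bars for medians. AP-2 targets, Grainyhead targets and epithelial genes lie mostly right of 0, and the family relatives lie on both sides of it. The lists were chosen with earlier results of these data known.

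Promoter sequences were looked up in the RefSeq table for GRCh38.p14, which held 16 windows of 250 bases before the start for 8 of the 10 factors. The 3 windows printed were chosen after the search, from factors called with at least 1 hairpin, because each holds a motif match. Other windows of GATA3 and TFAP2A, and those of EHF, are not printed. Capitals mark matches to the AP-2 motif GCCNNNGGC and the ETS motif CCGGAAG in GATA3, and to TATAAA in ELF3 and TFAP2A, each searched on both strands.
GATA3, chr10:8045083-8045332, plus strand, GRCh38.p14: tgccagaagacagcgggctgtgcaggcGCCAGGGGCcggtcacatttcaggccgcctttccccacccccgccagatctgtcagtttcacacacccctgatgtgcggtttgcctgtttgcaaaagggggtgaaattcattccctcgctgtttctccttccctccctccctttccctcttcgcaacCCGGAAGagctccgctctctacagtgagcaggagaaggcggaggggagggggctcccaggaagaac
ELF3, chr1:202010337-202010586, plus strand, GRCh38.p14: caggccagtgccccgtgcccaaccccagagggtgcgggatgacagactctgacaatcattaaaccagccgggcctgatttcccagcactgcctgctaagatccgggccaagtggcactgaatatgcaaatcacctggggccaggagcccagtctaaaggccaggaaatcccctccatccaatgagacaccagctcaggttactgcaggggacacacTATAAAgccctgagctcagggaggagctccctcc
TFAP2A, chr6:10419660-10419909, minus strand, GRCh38.p14: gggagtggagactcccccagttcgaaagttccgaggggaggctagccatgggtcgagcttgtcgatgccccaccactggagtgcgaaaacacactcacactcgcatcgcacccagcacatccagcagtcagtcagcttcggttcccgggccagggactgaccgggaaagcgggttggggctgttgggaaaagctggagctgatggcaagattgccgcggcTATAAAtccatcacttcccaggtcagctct
The AP-2 motif stood in 4 of the 16 windows, 1 of KLF4 and 3 of GATA3, and in 19.8% of 35116 windows in the table. TATAAA, a motif chosen after the sequences had been seen, stood in 4 of 16, and in 10.7% of all windows. CCGGAAG stood in 1 of 16 and in 8.52% of all windows, the GATA motif AGATAA in 1 and in 9.17%, and the FOXA motif TGTTTAC in 1 and in 2.98%. The KLF motif CCACACCC and the Grainyhead motif AACCNGTT stood in 0 of 16, and in 2.97% of all windows for CCACACCC and 1.49% for AACCNGTT. Several windows belong to alternative starts of 1 gene, and the matches marked above do not overlap each other. A match describes the letters of the window and says nothing of binding in these cells.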

How the data were processed

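The authors' deposited table gives whole-number counts for 9 libraries, not normalized. The submitters' processing notes name hg19, STAR, DESeq and DESeq2. Not given in the sources used here are tool versions, the counting program, its annotation and its strand setting. Deposited comparison tables by the authors hold, per the file headers, a mean normalized signal per gene, a log2 fold change and its p-value. They are used only where named.

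Counts were filtered with filterByExpr on the 3 groups (12546 genes, 99.93% of counts kept), scaled by TMM (factors 0.997 to 1.003) and fitted over all 9 libraries in edgeR 4.0.16 (R 4.3.3) with the robust quasi-likelihood method, which left 6 residual degrees of freedom. P-values were Benjamini-Hochberg adjusted over all tested genes, and a gene was called under 0.05. Entries with names converted to dates (28, with 0.232% of counts) stayed in the fit. The floor of 3 counts and the 95% intervals cover the error of these libraries only. Replicate libraries had pairwise variances of 1.2 to 1.91 times that of counting error.

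Levels per kilobase use merged exons of the GENCODE v29 basic annotation in GRCh38, whereas the authors used hg19. The factors, gene lists and motifs were chosen with earlier results of these data known. Named genes were all 10 factors, UGDH and 11 genes set by name (such as ESR1, ERBB2, CDH1, ZEB1, CITED2 and VIM), up to 4 called genes per list that averaged 1 CPM or more, ranked by fold change with those called with both hairpins first, and the 5 genes most correlated with TFAP2C. VEGFA, the motif TATAAA, KLF6 and KLF8 were added after their values were seen. The neighbours of the factors and the sum of KRT5, KRT6A, KRT14 and KRT17 are also outside this naming rule. The basal markers KRT6B and KRT15 were left out of that sum. Other lengths (exons of all annotated transcripts, and the longest coding transcript) were tried after the data were seen. Alternatives were DESeq2 1.42.0, limma-trend (limma 3.58.1), other scalings, filters and thresholds, a replicate block and leaving out each library. Of 12 histone and mitochondrial genes meant as signs of RNA quality, 4 were found by name and the others were not analysed here.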

Additional observations from a re-analysis of the deposited data

Results flagged for a closer look

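EHF was singled out because the effects of the 2 UGDH hairpins on it differed when they were compared directly. Its log2 fold change for shUGDH-1 over shUGDH-2 was -0.27 (SE 0.04), with EHF at 110 ± 3.41 CPM with shUGDH-1, 132 ± 7.20 CPM with shUGDH-2 and 121 ± 3.50 CPM with shNT (SD, n = 3 each). All libraries with shUGDH-1 lay below, and all with shUGDH-2 above, the shNT libraries. Among all 12546 genes, 10.9% differed between the hairpins at the same threshold. The source of the difference between the hairpins was not tested.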

How the results depend on the processing

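TFAP2C was called higher under every alternative that gave it an adjusted p, with log2 fold changes of 1.08 to 1.26 with shUGDH-1 and 1.15 to 1.34 with shUGDH-2. The alternatives share the same libraries and the same choice of genes, so they describe dependence on processing and add no further support. For shUGDH-2, DESeq2's independent filter gave TFAP2C no adjusted p, so DESeq2 without that filter was added after seeing the data. DESeq2 called 1 factor higher with shUGDH-1 and 1, GATA3, with shUGDH-2, and 1 lower with shUGDH-1 and 0 with shUGDH-2. Without the filter it called 1 higher with shUGDH-1, 2 higher with shUGDH-2 and 0 lower with either. Over all genes DESeq2 called 1541 with shUGDH-1 (1400 without the filter, against 2605 with edgeR), 958 with shUGDH-2 (776 without the filter, against 1864 with edgeR) and 756 between the hairpins (663 without the filter, against 1363 with edgeR). At an adjusted p under 0.01, edgeR called 1674 genes with shUGDH-1, 1049 with shUGDH-2 and 838 between the hairpins, and 0 factors lower with shUGDH-2. Between the hairpins, factors lower numbered 2, GATA3 with EHF, with limma-trend, upper-quartile factors, library totals, no filter, a filter of 1 CPM in 3 libraries, and only the groups compared. With each library left out in turn, factors higher numbered 1 to 2 with shUGDH-1 (1 without shNT replicate 1) and 2 to 3 with shUGDH-2, factors lower 2 with shUGDH-1, 0 to 1 with shUGDH-2 and 1 to 2 between the hairpins, and all genes called 1985 to 2599 with shUGDH-1, 1252 to 1846 with shUGDH-2 and 974 to 1627 between the hairpins. Genes lower with shUGDH-2 numbered 496 without shUGDH-2 replicate 1, against 855. With shUGDH-2, KLF5 changed sign to -0.001 with library totals, and with single libraries left out it ranged over -0.025 to 0.043, below 0 without shUGDH-2 replicate 2 or 3 or shNT replicate 3. GRHL1 ranged over -0.275 to 0.206, above 0 without shUGDH-2 replicate 2 or shNT replicate 3. Of the factors' other log2 fold changes under an alternative, 414 kept direction and call, 14 lost a call and 10, all of GATA3 between the hairpins, gained one. Same-numbered libraries showed little shared deviation (r of -0.08 to 0.13). With 3 libraries per group, such values cannot exclude a pairing by number. A replicate block left every factor's call as it was, with TFAP2C at 1.15 with shUGDH-1 and 1.23 with shUGDH-2. Gene length, varied after seeing the data, moved the share of TFAP2C in the AP-2 pair, as given with that result. Low counts limit GRHL1, GRHL2 and FOXA1. The causes of these changes were not tested.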

Other observations

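In the authors' deposited tables, whose direction was read from UGDH, the log2 fold change of TFAP2C was 1.00 with shUGDH-1 and 1.06 with shUGDH-2. That of ELF3 in the authors' deposited tables was 0.55 with shUGDH-1 and 0.19 with shUGDH-2. GRHL1, GRHL2 and FOXA1 were marked as low in the authors' deposited tables. With shUGDH-1, TFAP2C, TFAP2A, ELF3 and EHF had an adjusted p under 0.05 in the authors' deposited tables, as in edgeR. With shUGDH-2, TFAP2C and GATA3 did so in the authors' deposited tables, whereas TFAP2A and EHF, which edgeR called, did not.

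Neighbours were sought among protein-coding genes only, and their distance was not measured. CELF2, an RNA-binding protein gene, is the next protein-coding gene after GATA3 on chromosome 10 in the RefSeq annotation. It was called higher with both hairpins, as were 4.72% of all genes. The log2 fold change of CELF2 was 1.27 (SE 0.12) with shUGDH-1 and 1.12 (SE 0.12) with shUGDH-2, where GATA3 was at 0.12 with shUGDH-1 and 0.29 with shUGDH-2. The other neighbour of GATA3, TAF3, was not called with either hairpin. Those neighbours of other factors that were called were called with 1 hairpin each. Of all genes, 20.8% were called with shUGDH-1 and 14.9% with shUGDH-2. The neighbours given with values here are those that were called, so their values are a description. SLC35B3, beside TFAP2A, was lower with shUGDH-2 at a log2 fold change of -0.35. With shUGDH-1, RNPEP, beside ELF3, was higher at 0.13, and RAD23B, beside KLF4, was lower at -0.1. The protein-coding genes on both sides of TFAP2C, FAM209B and BMP7, did not pass the filter on low counts.

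Among KLF genes outside the list, KLF6, KLF8 and KLF13 were called between the hairpins, where 10.9% of all genes tested were. KLF2, KLF3, KLF7, KLF9, KLF10, KLF11, KLF12, KLF15, KLF16 and KLF17 were tested and not called in that comparison. KLF6 and KLF8 were picked after their values were seen, so their values are a description. KLF6 had 512, 528 and 514 CPM with shUGDH-1, 430, 438 and 449 CPM with shUGDH-2, and 509, 502 and 489 CPM with shNT. Its log2 fold change for shUGDH-1 over shUGDH-2 was 0.24. KLF13 had 26.2, 26.4 and 28.9 CPM with shUGDH-1, 38.7, 37.1 and 40.6 CPM with shUGDH-2, and 35.8, 40.4 and 35.5 CPM with shNT, a log2 fold change of -0.52 for shUGDH-1 over shUGDH-2 (adjusted p = 1.4e-08 by edgeR's quasi-likelihood test). KLF8 was scarce, at 0.388 ± 0.069 CPM with shUGDH-1, 1.45 ± 0.342 CPM with shUGDH-2 and 0.424 ± 0.387 CPM with shNT (SD, n = 3 each). Its log2 fold change over shNT was 1.70 with shUGDH-2. For KLF6, KLF13 and KLF8 the libraries with shUGDH-1 and shUGDH-2 did not overlap. Of all genes, 13.9% were higher and 13.1% lower with shUGDH-1 by that measure.

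The checks for other cell types and for RNA quality gave the following counts. Of 3 tested leukocyte markers, 2 were called lower with shUGDH-1 (10.3% of all genes) and 1 with shUGDH-2 (6.81% of all genes). CD68 was called with both and CSF1R with shUGDH-1. The summed level of all 12 leukocyte markers was 88.3 to 94.3 CPM with shUGDH-1, 90.6 to 97.0 CPM with shUGDH-2 and 97.1 to 104 CPM with shNT. Of 2 tested fibroblast markers, COL1A1 was called higher with shUGDH-2 (8.04% of all genes), at a log2 fold change of 0.42. Among the signs of RNA quality, the histone gene HIST1H2BK had a log2 fold change of 0.29 with shUGDH-1 and -0.20 with shUGDH-2, both called. Their part in the values of the lineage factors was not tested.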
